A study of Mus musculus with 6 samples.

Results

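Epithelial cells of mouse colon tumours that carried a transcript of Lgr5 or Ascl2, the genes that mark stem cells at the base of the intestinal crypt, were picked out of droplet-based single-cell RNA profiles. A barcode, which stands for 1 captured cell, was a member when it had at least 200 genes, at least 1500 unique molecular identifiers (UMIs) and at most 20% mitochondrial UMIs. It also needed at least 3 UMIs of Epcam, Krt8, Krt18, Krt19 and Cldn7 with at least 2 of these genes seen, no UMI of the leukocyte gene Ptprc, and at least 1 UMI of Lgr5 or Ascl2. Barcodes with 2 or more UMIs of the cycling genes Mki67 and Top2a, or 3 or more of the secretory genes Muc2, Spink4, Fcgbp, Clca1, Lyz1 and Defa24, were left out. The rule found 815 barcodes among 64505 deposited, of which 45451 passed the filters on genes, UMIs and mitochondrial share. The 815 were a subset of 2496 epithelial barcodes that met every condition but the one on Lgr5 and Ascl2, and the other 1681 are called negative below. The rule chose members by measured values, so the levels of its 16 genes are given as descriptions with no test.

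The tumours came from 2 models in male mice, with 3 libraries per model and 1 whole colon tumour per library. In Apc ICI (VilCreER Apcfl/fl), both alleles of Apc are floxed, and a Cre driven by the villin promoter of intestinal epithelium was activated by 70 µl of 100 µM 4-OH tamoxifen injected once into the colonic submucosa, with no carcinogen. In AOM PN (VilcreER P53fl/fl Notch1Tg), floxed p53 alleles and a Notch1 transgene were recombined after 2 mg of tamoxifen given intraperitoneally, and the colon carcinogen azoxymethane (AOM) followed, starting on day 4, as 6 weekly doses of 10 mg/kg. All groups shared the inducible villin Cre, and tumours were taken at clinical endpoint. The labels give no age, do not say whether libraries came from separate animals, and give no batch, so p-values measure only the spread between these libraries. The targeted genes, the carcinogen and the route of induction differ together between the models and cannot be told apart.

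Lgr5 is a receptor for R-spondins, which raise Wnt signalling at the cell surface by removing the ubiquitin ligases Rnf43 and Znrf3. Ascl2 is a transcription factor of the crypt base that is switched on by Wnt signalling. When Apc is lost, beta-catenin is no longer degraded and acts with Tcf and Lef factors on target genes, among them secreted or intracellular brakes on the pathway such as Axin2, Nkd1, Notum and the Dkk and Wif proteins. Notch signalling holds crypt cells in the absorptive or stem state, and injured or fetal-like epithelium can express Ly6a, Clu and annexins in place of the crypt base genes.

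The members carried epithelial transcripts, as the rule required, and the markers of some other cells, erythroid ones above all, were present beside them. Levels are in CPM, UMI counts scaled to the effective size of a library's summed barcodes (TMM), and are listed in the order of replicates 1, 2 and 3. Epcam stood at 3114, 2605 and 2689 CPM in the Apc ICI tumours against 3509, 2713 and 3230.4 in the AOM PN ones. Summed neutrophil markers stood at 126 to 307 CPM in Apc ICI and 454 to 630 CPM in AOM PN members, against 26617 to 85992 CPM in Ptprc-positive barcodes without epithelial transcripts. Fibroblast markers summed to 2.41 to 8.93 CPM in Apc ICI members and at most 0.414 in AOM PN members, and endothelial markers to 3.25 to 11 against 1.66 to 2.46 CPM. Mast cell and basophil markers summed to 18.9 to 27.3 CPM in Apc ICI members against 88.5 to 767 in AOM PN members. T and NK cell markers summed to 4.47 to 6.96 CPM in Apc ICI members against 133 to 248 in AOM PN members, with Ncr1 at 0 throughout. Erythroid markers, 4 haemoglobin genes among them, summed to 24536, 10548 and 34777 CPM in Apc ICI members and 15418, 37593 and 95.6 CPM in AOM PN members, against 3904 to 199896 CPM in the Ptprc-positive barcodes. B and plasma cell markers reached at most 16.2 CPM in Apc ICI members against 9028, 36.9 and 18.9 in the AOM PN ones. A single AOM PN 1 barcode held 18431 of the 18743 Igkc UMIs of that library's members, and the next barcode held 19.

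Depth differed between the libraries, and it bears on a rule that asks for 1 UMI. Members had a median of 24600, 26078.5 and 15828 UMIs outside haemoglobin genes in the Apc ICI tumours. The AOM PN medians were 15565.5, 4705 and 15513, while medians of negative barcodes were 3860.5 to 5311.5 for the Apc ICI tumours against 2533 to 2737.5 for AOM PN. AOM PN 2 stood apart as the shallowest, with a median of 1792 genes per member against 3799 to 5329 elsewhere. The members' UMIs summed to 813566 in AOM PN 2 and to 1108582 to 5603503 in the other libraries. Haemoglobin genes were left out of these sums and of the sums tested. They were counted only among the erythroid markers above. Pairs of libraries shared 10 to 52 barcode sequences, none of them a member in both libraries, and 19 members in all were called as doublets and kept (6, 1 and 7 in Apc ICI, 3, 0 and 2 in AOM PN).

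The first question was how large a share of the tumour epithelium carried Lgr5 or Ascl2 in each model. Members numbered 153, 230 and 169 of 345, 551 and 533 epithelial barcodes in the Apc ICI tumours. In the AOM PN tumours they numbered 138, 60 and 65 of 524, 300 and 243. As counted, the share was 44.3%, 41.7% and 31.7% in the Apc ICI tumours against 26.3%, 20% and 26.7% in the AOM PN ones (39.3% ± 6.67 against 24.4% ± 3.78, SD, n = 3 each, two-sided exact permutation p = 0.1, the smallest that 3 against 3 can give). With Lgr5 and Ascl2 read at 1 fixed depth the models drew together. The rule's other conditions were still applied to all UMIs, so the choice of epithelial barcodes was not evened in depth. After each barcode was thinned to 1500 UMIs, 12.8% (42 of 328, 95% exact interval 9.39 to 16.9), 11.7% (62 of 532, 9.05 to 14.7) and 10.0% (49 of 488, 7.52 to 13.1) of barcodes of the Apc ICI tumours carried either gene. In the AOM PN tumours the shares were 10.6% (51 of 479, 8.03 to 13.8), 9.62% (28 of 291, 6.49 to 13.6) and 11.2% (27 of 240, 7.55 to 15.9). The intervals of all 6 libraries overlapped, and the means of 11.5% ± 1.39 and 10.5% ± 0.823 differed by -0.994 points (n = 3 each, two-sided exact permutation p = 0.4). Thinning left out 17, 19 and 45 barcodes of Apc ICI and 45, 9 and 3 of AOM PN as shallower, and intervals cover counting error only.

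**Figure D1:**
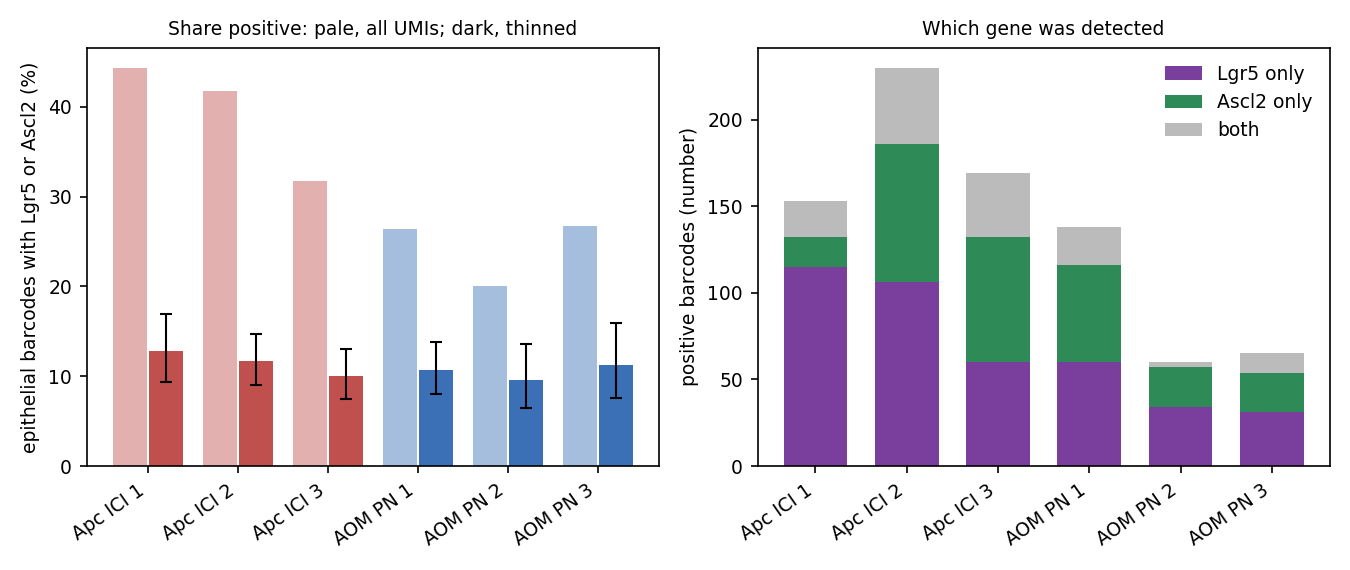
Left, percent of epithelial barcodes with a UMI of Lgr5 or Ascl2 in each library, with all UMIs (pale bars) and after thinning to 1500 UMIs (dark bars with the 95% exact interval). Right, number of members with a UMI of Lgr5 only, Ascl2 only or both; the thinned shares run from 9.62% to 12.8% with overlapping intervals, and AOM PN 2 has the fewest members, 60.

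Free RNA can place a stray UMI in any droplet, so the same share was read in cells that should lack both genes. Among Ptprc-positive barcodes thinned to the same depth, 34 of 25089 (0.136%, 95% exact interval 0.0939 to 0.189) carried Lgr5 or Ascl2, against 259 of 2358 (11%) epithelial barcodes over all libraries. Median depths before thinning were 3389 to 6129 UMIs in the Ptprc-positive barcodes and 2892 to 12324 in the epithelial ones. Thinned to 3000 UMIs, the shares were 20.4% ± 3.88 in Apc ICI against 17.5% ± 3.01 in AOM PN (n = 3 for both, exact permutation p = 0.4). Lgr5 alone was seen in 8.33% ± 3.23 and 7.18% ± 0.345 of barcodes thinned to 1500 UMIs (exact permutation p = 0.7), and Ascl2 alone in 3.51% ± 1.75 and 3.47% ± 1.29 (exact permutation p = 1.0, n = 3 each).

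Many members rested on a single UMI of the genes that chose them. Lgr5 (chr10:115450311-115587780, minus strand, GRCm38) gave 448, 397 and 268 UMIs over the Apc ICI members against 219, 72 and 105 over the AOM PN members. Ascl2 (chr7:142966829-142969264, minus strand) gave 94, 307 and 190 and then 142, 52 and 70 UMIs. Members with exactly 1 UMI of the pair made up 26.1%, 39.1% and 44.4% of Apc ICI members against 42.8%, 65% and 40% of AOM PN members, and the highest count in 1 barcode was 15. As a description of the threshold, the median depth of members with 1 such UMI was 18895, 11791 and 7629 in the Apc ICI tumours against 7708, 4475 and 5053 in the AOM PN ones. Barcodes just outside it, with no such UMI, had medians of 5311.5, 5286 and 3860.5 and of 2737.5, 2698 and 2533. Levels of both genes in the summed members lay close together across libraries, apart from a low Ascl2 in Apc ICI 1. Lgr5 stood at 114, 67.95 and 88.1 CPM in the Apc ICI tumours against 99.97, 93.6 and 98.3 in the AOM PN ones. Ascl2 stood at 23.8, 52.6 and 62.5 against 64.8, 67.6 and 65.5 CPM.

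Most members had UMIs of only 1 of the 2 genes, and the 2 kinds of barcode held different transcripts. Members with exactly 1 UMI of the pair, 26.1% to 65% by library, cannot show both genes. These counts therefore do not show that the genes exclude each other, and whether they occur together was not tested. Lgr5 alone was seen in 281 members of Apc ICI and 125 of AOM PN, Ascl2 alone in 169 and 102, and both in 102 and 36. By library, Lgr5-only members numbered 115, 106 and 60 in the Apc ICI tumours against 60, 34 and 31 in the AOM PN ones. Ascl2-only members numbered 17, 80 and 72 against 56, 23 and 23. Sums of the 2 classes were compared within libraries (12 sums, library as a block, edgeR quasi-likelihood test with Benjamini-Hochberg adjustment), a comparison chosen after the data had been seen. Levels "with Lgr5" and "with Ascl2" are those of the Lgr5-only and the Ascl2-only sums. The classes are defined by counts of the 2 genes, which have no test here. No other gene entered that split, but the classes can differ in depth and in whatever goes with either gene. Of 8939 genes tested, 1147 (12.8%) were higher in Lgr5-only and 1059 (11.8%) higher in Ascl2-only barcodes at an adjusted p under 0.05. The median depth of Lgr5-only barcodes was 19237, 19808.5 and 13922.5 UMIs in the Apc ICI tumours against 32194, 25576 and 11445 for Ascl2-only ones. In the AOM PN tumours it was 12960.5, 2947.5 and 5564 against 12425, 12035 and 22590.0. With barcodes paired in depth the counts were 610 and 580, and with every barcode thinned to 1500 UMIs they were 414 and 316.

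Wnt pathway brakes and targets were higher where Lgr5 was seen. Of 19 Wnt list genes tested, 11 were higher in Lgr5-only barcodes and 1, Ccnd1, was lower, with a median log2 change of 0.87 against 0.05 over all genes. Nkd1 (chr8:88521354-88594884), an intracellular inhibitor that binds Dishevelled, was at 889.6, 989 and 1060.4 CPM with Lgr5 and 597, 671 and 651 CPM with Ascl2 in the Apc ICI tumours. The AOM PN tumours held 637, 359.7 and 439 CPM with Lgr5 against 20.2, 24.9 and 70.9 with Ascl2 (log2 change 2.19 ± 0.21, edgeR adjusted p = 1.9e-05). The classes did not overlap in either model, and the gap was wider in AOM PN. Notum (chr11:120653788-120661175), a secreted enzyme that strips the lipid from Wnt proteins, was at 339, 330.0 and 526 CPM with Lgr5 and 177, 189 and 220.0 CPM with Ascl2 in the Apc ICI tumours. Its AOM PN levels were 301, 117 and 221 CPM with Lgr5 against 21.4, 27 and 88.6 with Ascl2 (1.71 ± 0.23, edgeR adjusted p = 2.1e-04). Wif1 (chr10:121033960-121100650), a secreted Wnt-binding inhibitor, was at 1005, 782 and 945 CPM with Lgr5 and 398, 502 and 312 CPM with Ascl2 in the Apc ICI tumours. In AOM PN the values were 443, 5.07 and 221 CPM with Lgr5 against 2.38, 10.4 and 66.5 with Ascl2 (2.25 ± 0.43, edgeR adjusted p = 0.002). In AOM PN 2 the order of Wif1 was the opposite of that in the other 5 libraries, and without AOM PN 1 its change was 1.29. Both Wif1 levels of AOM PN 2 were low, 5.07 and 10.4 CPM in Lgr5-only and Ascl2-only sums of 197007 and 527889 UMIs over all genes. In the same Lgr5-only sum Nkd1 stood at 359.7 CPM. The cause of the low Wif1 in that library was not tested.

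The nuclear factors of the pathway moved the same way. Prox1 (chr1:190118035-190170714), a homeobox factor and Wnt target of colon tumours, was at 627, 578 and 724 CPM with Lgr5 and 454, 266 and 337 CPM with Ascl2 in the Apc ICI tumours. The AOM PN tumours held 403, 45.6 and 308 CPM with Lgr5 against 4.76, 4.15 and 17.7 with Ascl2 (2.96 ± 0.24, edgeR adjusted p = 5.2e-06). Every library had more Prox1 in Lgr5-only barcodes, and the Ascl2-only level of AOM PN lay far below that of Apc ICI. Lef1 (chr3:131110471-131224356), a DNA-binding partner of beta-catenin, was at 99.3, 87.9 and 110.2 CPM with Lgr5 and 64.5, 62.5 and 63.6 CPM with Ascl2 in the Apc ICI tumours. Its AOM PN levels were 91.4, 70.9 and 63.9 CPM with Lgr5 against 20.2, 35.3 and 33.2 with Ascl2 (1.06 ± 0.18, edgeR adjusted p = 9.5e-04). The ubiquitin ligases Znrf3 and Rnf43, which remove Wnt receptors, were higher by 1.06 ± 0.17 and 0.87 ± 0.16 (edgeR adjusted p = 7.6e-04 and 0.0014, the latter 0.054 with pairing in depth). Dkk2 was higher by 1.22 ± 0.23 (edgeR adjusted p = 0.0019). Dkk3 was listed at 0 in Ascl2-only barcodes of all 3 AOM PN libraries and at 35.4 to 62.7 CPM in those of Apc ICI. It was also at 0 in Lgr5-only barcodes of AOM PN 2. The feedback gene Axin2 (chr11:108920349-108950783) was higher by 0.54 ± 0.15 (edgeR adjusted p = 0.014), a call that was lost with pairing in depth (0.33, adjusted p = 0.17) and without Apc ICI 2 (0.53), Apc ICI 3 (0.51) or AOM PN 1 (0.46). Ccnd1, the cyclin of the G1 phase, was higher in Ascl2-only barcodes (-1.27 ± 0.20, edgeR adjusted p = 5.0e-04).

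Sequence before the start of these genes was read for the core of the Tcf and Lef binding motif, because the genes moved together. The motif was CTTTGA on either strand, in the 250 bases before each RefSeq start (GRCm38.p6). It occurred in 4544 of 32851 such windows (13.8%) over all genes, and in 1 of the 12 windows (8.33%) found for 7 of the 11 Wnt genes that were higher in Lgr5-only barcodes. The share is no higher than that of all windows, and a match or its lack in so short a window says nothing of binding. The windows below are shown because Lef1 holds both matches of that set, while Axin2 and Ascl2, of the same pathway, hold none. Matches are in capitals, each line reads 5′ to 3′ on the gene's strand, and the windows are an alternative start of Lef1 (chr3:131156044-131156293, plus strand), Axin2 (chr11:108920099-108920348, plus strand) and Ascl2 (chr7:142969265-142969514, minus strand).
Lef1: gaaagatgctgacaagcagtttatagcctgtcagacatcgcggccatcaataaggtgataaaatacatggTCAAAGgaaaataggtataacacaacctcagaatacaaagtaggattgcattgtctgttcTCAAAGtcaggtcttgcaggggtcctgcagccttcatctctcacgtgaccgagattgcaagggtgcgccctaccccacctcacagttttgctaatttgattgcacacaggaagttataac
Axin2: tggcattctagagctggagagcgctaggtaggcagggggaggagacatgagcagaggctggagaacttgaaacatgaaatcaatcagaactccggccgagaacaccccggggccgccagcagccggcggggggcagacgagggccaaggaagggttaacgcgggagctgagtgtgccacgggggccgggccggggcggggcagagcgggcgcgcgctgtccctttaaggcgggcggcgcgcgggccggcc
Ascl2: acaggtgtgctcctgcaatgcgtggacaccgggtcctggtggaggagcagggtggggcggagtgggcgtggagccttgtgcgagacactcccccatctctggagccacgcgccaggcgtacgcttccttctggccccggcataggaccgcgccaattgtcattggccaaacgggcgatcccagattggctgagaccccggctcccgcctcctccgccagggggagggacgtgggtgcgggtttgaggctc

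More crypt base genes were called towards Lgr5 than towards Ascl2. Of 22 stem cell list genes tested, 7 were higher in Lgr5-only and 3 in Ascl2-only barcodes (median log2 change 0.37), and the 3 are near the 11.8% of all genes called that way. Smoc2 (chr17:14279506-14404790), a matricellular protein of Lgr5-positive cells, was at 251, 225 and 195 CPM with Lgr5 and 88.5, 68.4 and 82.3 CPM with Ascl2 in the Apc ICI tumours. In AOM PN the values were 274, 81.1 and 131 CPM with Lgr5 against 3.57, 2.08 and 6.65 with Ascl2 (3.48 ± 0.21, edgeR adjusted p = 5.2e-07). In AOM PN the highest Ascl2-only sum was at 6.65 CPM and the lowest Lgr5-only sum at 81.1. The receptor Tnfrsf19 was higher with Lgr5 by 1.59 ± 0.28 (edgeR adjusted p = 0.0012), and the RNA-binding protein Msi1 was listed at 0 in Ascl2-only sums of AOM PN and at 5.91 to 12.9 CPM in those of Apc ICI. Lrig1, a brake on EGF receptors, Mex3a, Cd44 and Cdk6 also passed the test with Lgr5 (0.80 ± 0.27, 0.85 ± 0.25, 0.52 ± 0.15 and 0.56 ± 0.19), and all 4 calls were lost with pairing in depth. Each of the 4 was also lost without Apc ICI 3 (0.76, 0.72, 0.56 and 0.45), Lrig1 and Cdk6 also without AOM PN 2 (0.68 and 0.50), and Lrig1, Mex3a and Cdk6 without AOM PN 1 (0.83, 0.92 and 0.38). Without Apc ICI 2, Lrig1, Cd44 and Cdk6 were lost (0.59, 0.54 and 0.70), without Apc ICI 1 Cd44 and Cdk6 (0.47 and 0.57), and without AOM PN 3 Lrig1 and Mex3a (0.83 and 0.77). Tspan8, Cdca7 and Hopx were higher with Ascl2 (log2 change -0.94 ± 0.21, -0.80 ± 0.23 and -0.52 ± 0.17; edgeR adjusted p = 0.0056, 0.022 and 0.037), and none of these 3 passed after thinning. Cdca7 and Hopx were lost without Apc ICI 2 (-0.86 and -0.44) or Apc ICI 3 (-0.74 and -0.50), Cdca7 without AOM PN 1 (-0.55) and Hopx without AOM PN 2 (-0.36).

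Wide differences also lay outside the Wnt list. Mt3 (chr8:94152607-94154146), a metallothionein that binds zinc and copper and is best known from brain, was at 2596, 2674 and 3226 CPM with Lgr5 and 1558, 1040.3 and 1134 CPM with Ascl2 in the Apc ICI tumours. The AOM PN tumours held 2454, 0 and 721 CPM with Lgr5 against 0, 2.08 and 0 with Ascl2 (log2 change 6.04 ± 0.41, edgeR adjusted p = 9.2e-07). In AOM PN it was all but confined to Lgr5-only sums of replicates 1 and 3, and AOM PN 2 had none there. With next to no UMIs in Ascl2-only sums of AOM PN, its fitted change and the value after ± depend on the prior count. Spock2 (chr10:60106219-60135198), an extracellular proteoglycan, was at 1380.2, 1074 and 1557 CPM with Lgr5 and 490.4, 326 and 313 CPM with Ascl2 in the Apc ICI tumours. Its AOM PN levels were 1158, 0 and 430.0 CPM with Lgr5 against 2.38, 0 and 15.5 with Ascl2 (4.3 ± 0.32, edgeR adjusted p = 4.8e-06). Vim (chr2:13573927-13582826), the intermediate filament of mesenchymal cells, was at 1923, 2492 and 2135 CPM with Lgr5 and 829.6, 617 and 599.8 CPM with Ascl2 in the Apc ICI tumours. In AOM PN the values were 1623, 60.8 and 476 CPM with Lgr5 against 13.1, 41.5 and 31 with Ascl2 (2.99 ± 0.44, edgeR adjusted p = 3.5e-04). Fibronectin, encoded by Fn1, and the membrane protease Mmp14 were higher with Lgr5 by 1.68 ± 0.25 and 0.78 ± 0.17 (edgeR adjusted p = 4.1e-04 and 0.0049). Mmp14 was lost without AOM PN 1 (0.65) and with pairing in depth (0.66). Fibroblast markers, read over all members and not by class, summed to no more than 8.93 CPM in any library. The part of RNA from other cells in Vim, Fn1 and Mmp14 was not tested.

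**Figure D2:**
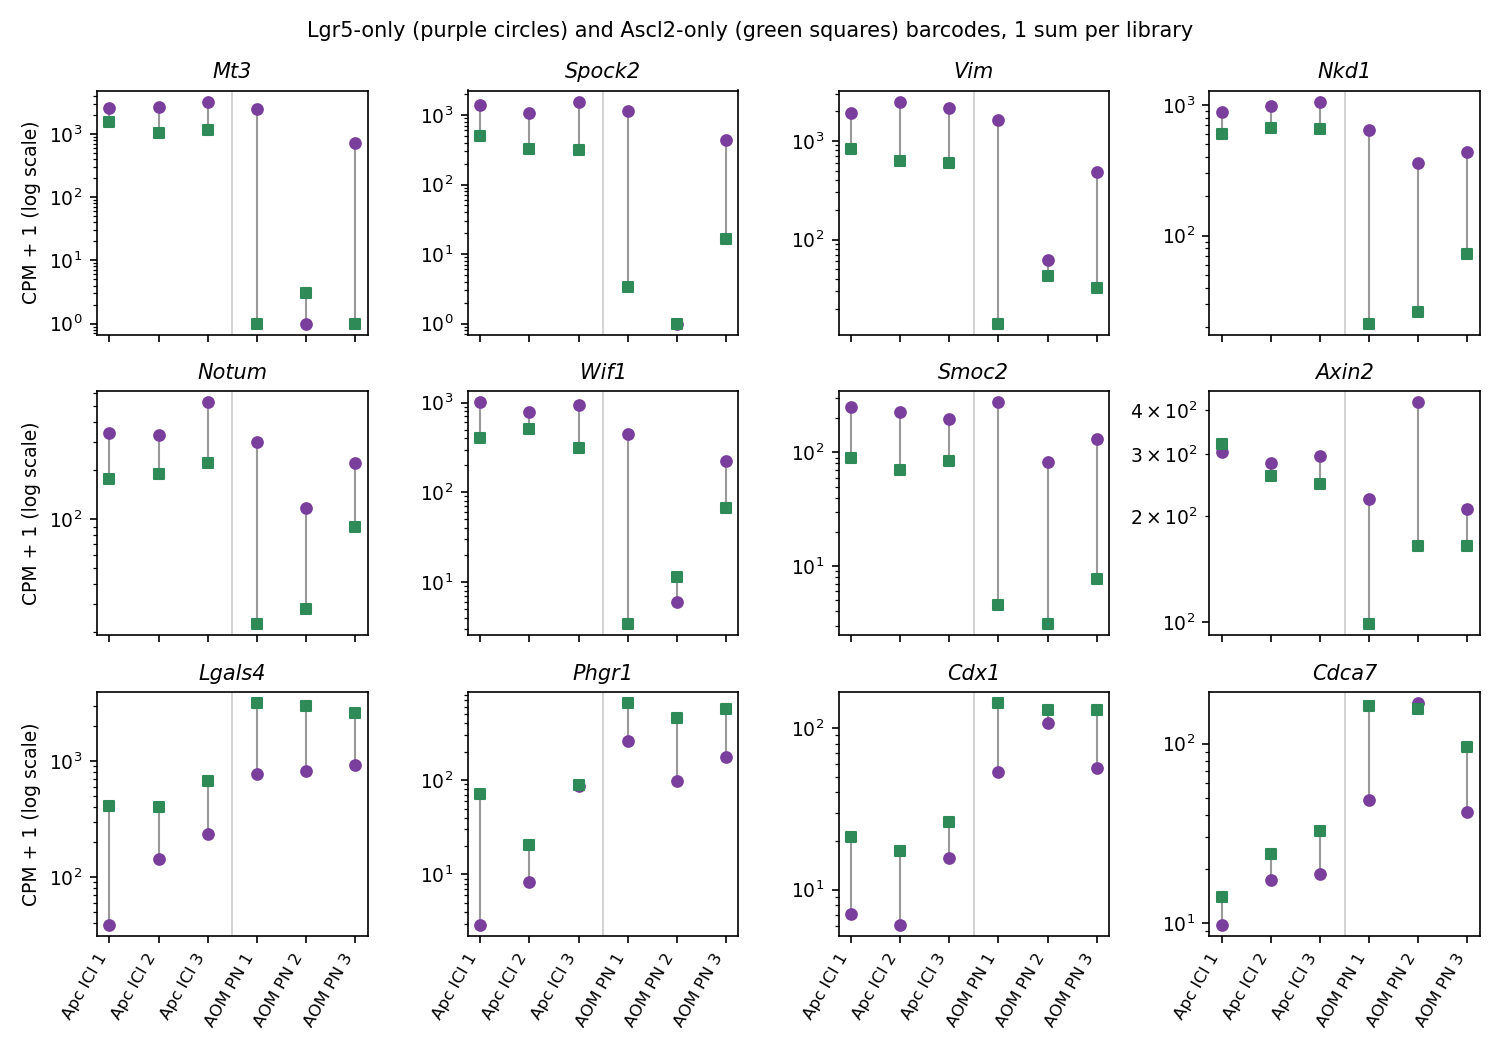
Level of 12 genes (CPM + 1, log axis) in Lgr5-only (purple circles) and Ascl2-only members (green squares), 1 point per class and library. Mt3, Spock2, Vim and the Wnt genes stand higher in purple and Lgals4, Phgr1 and Cdx1 in green; for Mt3 the Ascl2-only points of AOM PN lie at or near 0.

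Of 14 metallothionein and hypoxia genes tested, 5 were higher with Lgr5 and 2 with Ascl2 (median 0.54), against 12.8% and 11.8% of all genes, so the share with Ascl2 is near that of all genes. Mt2 (1.2 ± 0.17, edgeR adjusted p = 2.9e-04), Bnip3 (1.29 ± 0.37), the growth factor Vegfa (1.25 ± 0.21) and the glucose transporter Slc2a1 (1.18 ± 0.19) were higher with Lgr5. The glycolytic enzymes Ldha and Pgk1 were higher with Ascl2 (log2 change -0.85 ± 0.17 and -0.74 ± 0.20, edgeR adjusted p = 0.0029 and 0.016). Vegfa did not pass with pairing in depth (0.73, edgeR adjusted p = 0.051). Bnip3 was lost without AOM PN 1 (0.36), Apc ICI 2 (1.27) or Apc ICI 3 (1.18), and Pgk1 without Apc ICI 1 (-0.64) or Apc ICI 2 (-0.70). The lipase-related genes Pnliprp1 and Pnliprp2 (log2 change 5.15 ± 0.30 and 7.22 ± 0.39), the protease gene Prss56 (7.98 ± 0.43), Ltbp1, which binds latent TGF-beta (5.38 ± 0.53), and the transcription factors Sox11 (4.63 ± 0.71) and Sox6 (4.58 ± 0.54) were among the 12 named genes with the widest gap towards Lgr5, and without AOM PN 1 Pnliprp2 was at 4.54 and Sox11 no longer passed (3.09). Prss56, Ltbp1, Sox11 and Sox6 had no UMI in Ascl2-only sums of AOM PN, so their fitted values depend on the prior count and are no bound. In AOM PN 2, Pnliprp1, Pnliprp2, Prss56, Ltbp1 and Sox11 were at 0 in the Lgr5-only sum as well, so that library showed no gap for them. In Lgr5-only sums, Prss56 was at 373 CPM in AOM PN 1 and 11.6 in AOM PN 3, and Sox11 at 27.5 and 2.91. Sox11 was not particular to Lgr5-only barcodes. Against negative barcodes of like depth it was lower in members (-2.38 ± 0.41, edgeR adjusted p = 0.0039). In the Apc ICI tumours it was at 44.4, 22.8 and 41.1 CPM in matched members and 140, 130 and 84.6 CPM in negatives. Among 16 immediate early or heat shock genes, which also respond to tissue dissociation, 7 were higher with Lgr5 and none with Ascl2 (median 0.35).

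Several named genes of intestinal epithelium were higher where Ascl2 alone was seen, without a like count in the lists of mature cells. Of 4 absorptive colonocyte genes tested none passed, and of 5 goblet and deep crypt secretory genes 1, Sytl2, was higher with Lgr5 and 2, Agr2 and Guca2b, with Ascl2. Lgals4 (chr7:28833854-28841708), a galectin of intestinal epithelium, was at 37.3, 142 and 234 CPM with Lgr5 and 409, 398 and 677 CPM with Ascl2 in the Apc ICI tumours. The AOM PN tumours held 774, 821 and 921 CPM with Lgr5 against 3163, 2969 and 2595 with Ascl2 (log2 change -1.94 ± 0.21, edgeR adjusted p = 5.4e-05). It was higher in Ascl2-only sums of all 6 libraries. The homeobox factor Cdx1, which sets intestinal identity, was at 6.08, 5.03 and 14.7 CPM with Lgr5 and 20.3, 16.2 and 25.3 CPM with Ascl2 in the Apc ICI tumours. Its AOM PN levels were 52.6, 106 and 55.2 CPM with Lgr5 against 142, 129 and 129 with Ascl2 (-1.2 ± 0.22, edgeR adjusted p = 0.0014). The epithelial genes Phgr1 and Vil1, the latter encoding the brush border protein villin, were lower with Lgr5 (log2 change -1.59 ± 0.36 and -0.99 ± 0.19, edgeR adjusted p = 0.0056 and 0.0021; Vil1 did not pass after thinning). The secretory folding protein gene Agr2 was at -2.09 ± 0.29, Ttr, which encodes transthyretin, at -3.26 ± 0.40, the keratin Krt15 at -2.99 ± 0.53, the endoderm factor Sox17 at -2.24 ± 0.29 and Crip1 at -2.07 ± 0.14 on the same scale, all past the edgeR threshold. Of 10 cell cycle genes tested none was higher with Lgr5 and 3 were higher with Ascl2 (Birc5, Ube2c and Mcm5). Without AOM PN 1 Birc5 and Ube2c were lost (-1.11 and -0.87), without Apc ICI 3 Birc5 and Mcm5 (-1.71 and -1.10), without Apc ICI 1 Birc5 (-1.79), and without Apc ICI 2 or AOM PN 3 Mcm5 (-1.35 and -1.27). Of 16 fetal and regenerative genes 2 were higher with Ascl2 and none with Lgr5. The 2 are near the 11.8% of all genes called that way, and the list's median was 0.21. Ly6a was 1 of the 2 (-1.15 ± 0.26, edgeR adjusted p = 0.0054), and did not pass with pairing in depth (-1.03) or after thinning (-0.65).

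Whether the Lgr5 against Ascl2 contrast differed between the models was tested with the interaction of that fit, AOM PN minus Apc ICI. It passed for 114 of 8939 genes (1.28%), 89 (0.996%) towards a wider gap in AOM PN and 25 (0.28%) the other way, and after thinning for 4 and 2. Mt3 differed by 9.67 ± 0.87 (edgeR adjusted p = 1.8e-04). In Apc ICI its Lgr5-only sums exceeded the Ascl2-only ones by 1.2 ± 0.29. Nkd1 differed by 3.16 ± 0.42 (adjusted p = 0.0018), with 3.78 ± 0.34 in AOM PN and 0.61 ± 0.25 in Apc ICI. Prox1 differed by 4.11 ± 0.49 and Smoc2 by 3.96 ± 0.47 (edgeR adjusted p = 0.0012 and 0.0012). Scn2b, a sodium channel subunit of stem cell lists, went the other way between models (-3.09 ± 0.39, edgeR adjusted p = 0.0017): it was higher with Lgr5 in Apc ICI and with Ascl2 in AOM PN. The interaction was not called for Lef1 (0.86 ± 0.36, adjusted p = 0.33), Notum (1.42 ± 0.46, 0.19), Wif1 (2.14 ± 0.86, 0.31), Vim (2.6 ± 0.87, 0.2) or Axin2 (0.87 ± 0.29, 0.2).

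Counted by barcode, Mt3 divided the members of AOM PN. Among Lgr5-only members, 83 of 115, 83 of 106 and 49 of 60 carried an Mt3 UMI in the Apc ICI tumours. In the AOM PN tumours 25 of 60 (41.7%), 0 of 34 and 6 of 31 (19.4%) did. Among Ascl2-only members the counts were 12 of 17, 61 of 80 and 43 of 72 in Apc ICI and 0 of 56, 1 of 23 and 0 of 23 in AOM PN. Of members with both genes, 4 of 22, 0 of 3 and 4 of 11 carried it in AOM PN 1, 2 and 3. Negative barcodes of AOM PN 1, 2 and 3 carried Mt3 in 27 of 386, 5 of 240 and 22 of 178. Of the 25 Mt3-positive Lgr5-only members of AOM PN 1, 22 also had Vim, 22 had Spock2 and 6 had Lgals4, and of the 6 in AOM PN 3, 5 had Vim, 6 had Spock2 and 0 had Lgals4. After thinning to 1500 UMIs, 33.9%, 0% and 9.7% of the Lgr5-only members of AOM PN 1, 2 and 3 still had an Mt3 UMI, and 56.5%, 64.2% and 76.7% in Apc ICI 1, 2 and 3. In Ptprc-positive barcodes at that depth the share was 3.2% to 5.25% in the Apc ICI tumours against 0.017% to 0.174% in the AOM PN ones, and the AOM PN values of replicates 1 and 3 stood above it.

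**Figure D3:**
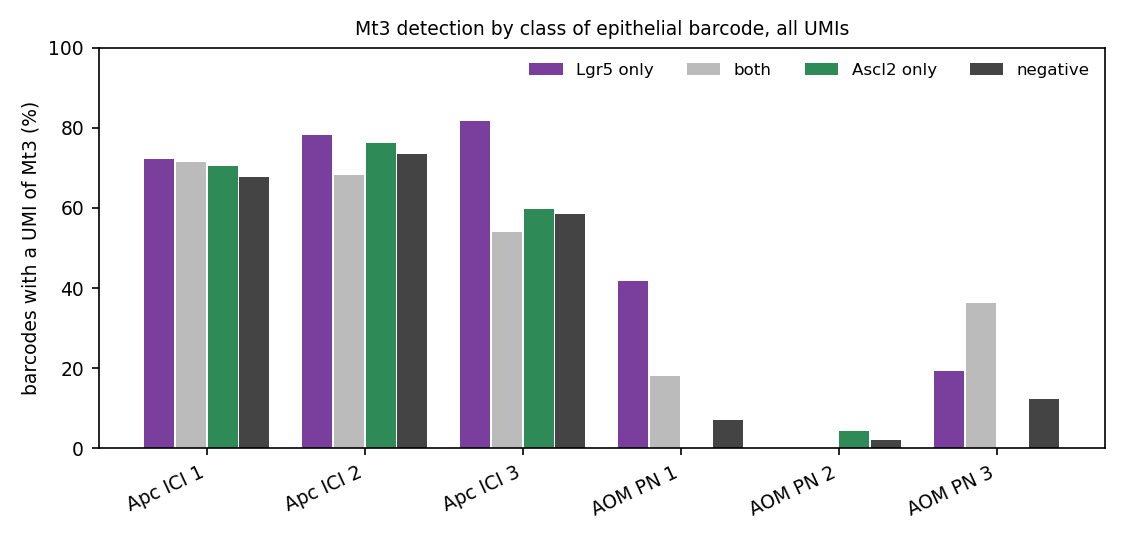
Percent of barcodes with at least 1 Mt3 UMI, with all UMIs counted, in Lgr5-only members, members with both genes, Ascl2-only members and negative barcodes of each library. In Apc ICI all classes are high, whereas in AOM PN Lgr5-only members of replicate 1 reach 41.7% and Ascl2-only members of replicates 1 and 3 are at 0.

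Members were next compared with negative epithelial barcodes of like depth in the same library, 12 sums with the library as a block. Matching kept 92, 132 and 115 members of the Apc ICI tumours, 90, 50 and 40 of the AOM PN ones, and left out the others, mostly deep ones, for want of a negative of like depth. It was not complete, since up to 3 negatives were taken per member and few negatives were deep. The median depth of matched members was 14743, 11393.5 and 7790.0 UMIs in the Apc ICI tumours against 6536, 5928.5 and 5261.5 for negatives. In the AOM PN tumours it was 8015, 3295 and 5999.5 against 5593, 3112 and 3769.5. Of 10822 genes tested, 513 (4.74%) passed at an edgeR adjusted p under 0.05, 150 (1.39%) higher and 363 (3.35%) lower in members, and 985 (9.1%) lay in 1 direction in all 6 libraries. After thinning to 1500 UMIs 32 were higher and 105 lower.

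Further crypt base genes accompanied Lgr5 and Ascl2. Of 24 stem cell list genes tested, 8 were higher and 1 lower, with a median log2 change of 0.31 against 0.01 over all genes. Slc12a2, a chloride cotransporter of crypt cells, was at 111, 128 and 119.7 CPM in members and 65.9, 56.5 and 75.5 CPM in negatives of the Apc ICI tumours. Members of the AOM PN tumours had 338, 334 and 386 and negatives 191, 158 and 150.3 CPM (log2 change 0.96 ± 0.10, edgeR adjusted p = 1.7e-04). Sox9, a transcription factor of crypt progenitors, was at 182, 148 and 206 CPM in members and 80.8, 95.3 and 118 CPM in negatives of the Apc ICI tumours. AOM PN levels were 374, 391 and 368 CPM in members against 209, 356 and 338 in negatives (0.63 ± 0.11, edgeR adjusted p = 0.004). Both were higher in members of every library. Smoc2 was at 219, 122 and 122 CPM in members and 161, 86 and 109 CPM in negatives of the Apc ICI tumours. Its values in AOM PN were 91, 19.9 and 95.3 CPM in members against 25.9, 9.08 and 70.0 in negatives (0.80 ± 0.15, edgeR adjusted p = 0.0067), a call that was lost without AOM PN 1 (0.46, adjusted p = 0.11). Lrig1 (1.03 ± 0.23), the BMP co-receptor Rgmb (1.28 ± 0.24), Cdca7 (0.82 ± 0.15), Soat1 (0.69 ± 0.14) and Hopx (0.71 ± 0.11) also passed, and of these Cdca7, Soat1 and Hopx did not pass after thinning. Rgmb and Soat1 were lost without AOM PN 1 (1.19 and 0.46), Lrig1 without AOM PN 2 (0.92), Apc ICI 2 (0.88) or Apc ICI 3 (0.92), and Cdca7 without Apc ICI 2 (0.72). Cd44, which was mainly a transcript of Ptprc-positive barcodes, was lower (-0.47 ± 0.09, edgeR adjusted p = 0.0089, lost without Apc ICI 3 at -0.45). Of 22 Wnt list genes only Axin2 passed, at 0.31 ± 0.08 (edgeR adjusted p = 0.049), and its call was lost without any 1 of the 6 libraries. None of 12 Notch genes passed.

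Other genes with a higher level in members included regulators of progenitors and transporters. Myb, a transcription factor that colon progenitors need, was at 34.9, 35.7 and 37 CPM in members and 14.9, 12.1 and 15 CPM in negatives of the Apc ICI tumours. Members of the AOM PN tumours had 49.3, 57.3 and 43.1 and negatives 33.6, 27.2 and 22.3 CPM (log2 change 1.07 ± 0.14, edgeR adjusted p = 5.8e-04). Kcne3, a potassium channel subunit of crypt chloride secretion, was at 102, 168 and 98 CPM in members and 35, 50.7 and 53.3 CPM in negatives of the Apc ICI tumours. AOM PN levels were 366, 376 and 368 CPM in members against 284, 195 and 162 in negatives (1.09 ± 0.13, edgeR adjusted p = 3.0e-04). Cdo1, which encodes cysteine dioxygenase, was at 50.3, 37.3 and 42.2 CPM in members and 10.1, 6.33 and 10.1 CPM in negatives of the Apc ICI tumours. Its values in AOM PN were 17, 7.47 and 45.4 CPM in members against 7.16, 3.89 and 5.95 in negatives (2.03 ± 0.23, edgeR adjusted p = 2.5e-04). Members exceeded negatives in all 6 libraries for these 3 genes, which were named partly for agreement in at least 5 of 6 libraries. The glutathione transferase Gsta3 (1.17 ± 0.14) and the secreted ribonuclease Rnase4 (1.09 ± 0.20) were also higher. The protease Mmp7 was higher by 0.79 ± 0.16 (edgeR adjusted p = 0.011).

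Genes of surface colonocytes, of regenerating epithelium and of the response to inflammation were lower in members. Of 11 absorptive genes tested 6 were lower and none higher (median -2.40). Krt20, the keratin of surface cells, was at 0.906, 1.18 and 1.17 CPM in members and 4.84, 8.97 and 8.17 CPM in negatives of the Apc ICI tumours. Members of the AOM PN tumours had 0, 0 and 4.54 and negatives 51.8, 125 and 84.8 CPM (log2 change -4.39 ± 0.36, edgeR adjusted p = 3.0e-05). Saa1 (chr7:46740497-46742980), an acute-phase protein, was at 0, 0 and 0 CPM in members and 45.8, 1.06 and 0.327 CPM in negatives of the Apc ICI tumours. AOM PN levels were 0.850, 0 and 0 CPM in members against 466, 1878 and 323 in negatives (-9.07 ± 0.34, edgeR adjusted p = 1.4e-07). Of the members' sums only that of AOM PN 1 held a Saa1 UMI, while every sum of negatives did. Its fitted change and the value after ± therefore depend on the prior count and are no bound. Of 17 fetal and regenerative genes 8 were lower and none higher (median -0.56). Ly6a, which encodes the Sca-1 antigen, was at 203, 56.1 and 120.2 CPM in members and 204, 106 and 185 CPM in negatives of the Apc ICI tumours. Its values in AOM PN were 401, 349 and 515 CPM in members against 1334, 1033 and 1168 in negatives (-1.0 ± 0.11, edgeR adjusted p = 2.5e-04). Anxa1 and Anxa3, membrane-binding annexins, were at -0.78 ± 0.11 and -1.08 ± 0.11, and Clu, the clusterin of revival cells, at -0.66 ± 0.14, which did not pass after thinning (-0.41, edgeR adjusted p = 0.20). Of 15 NF-kappa-B targets 7 were lower (median -0.48), among them the chemokines Cxcl2 (-1.55 ± 0.20) and Ccl20 (-1.57 ± 0.22).

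Markers of other cells were also lower in members of these sums. Of 6 neutrophil markers 4 were lower (median -1.46) and of 5 mast cell and basophil markers 4 (median -2.18), and 114 of the genes called in this comparison were mainly transcripts of Ptprc-positive barcodes. Of 10 genes of MHC antigen presentation 8 were lower (median -0.63), and 7 of the 10 were mainly of Ptprc-positive barcodes. H2-K1 and H2-D1, which were not, were at -0.34 ± 0.07 and -0.44 ± 0.07, and H2-K1 was lost without Apc ICI 2 (-0.33) or Apc ICI 3 (-0.34). The part of RNA from other cells in the lower inflammatory and MHC genes was not tested.

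**Figure D4:**
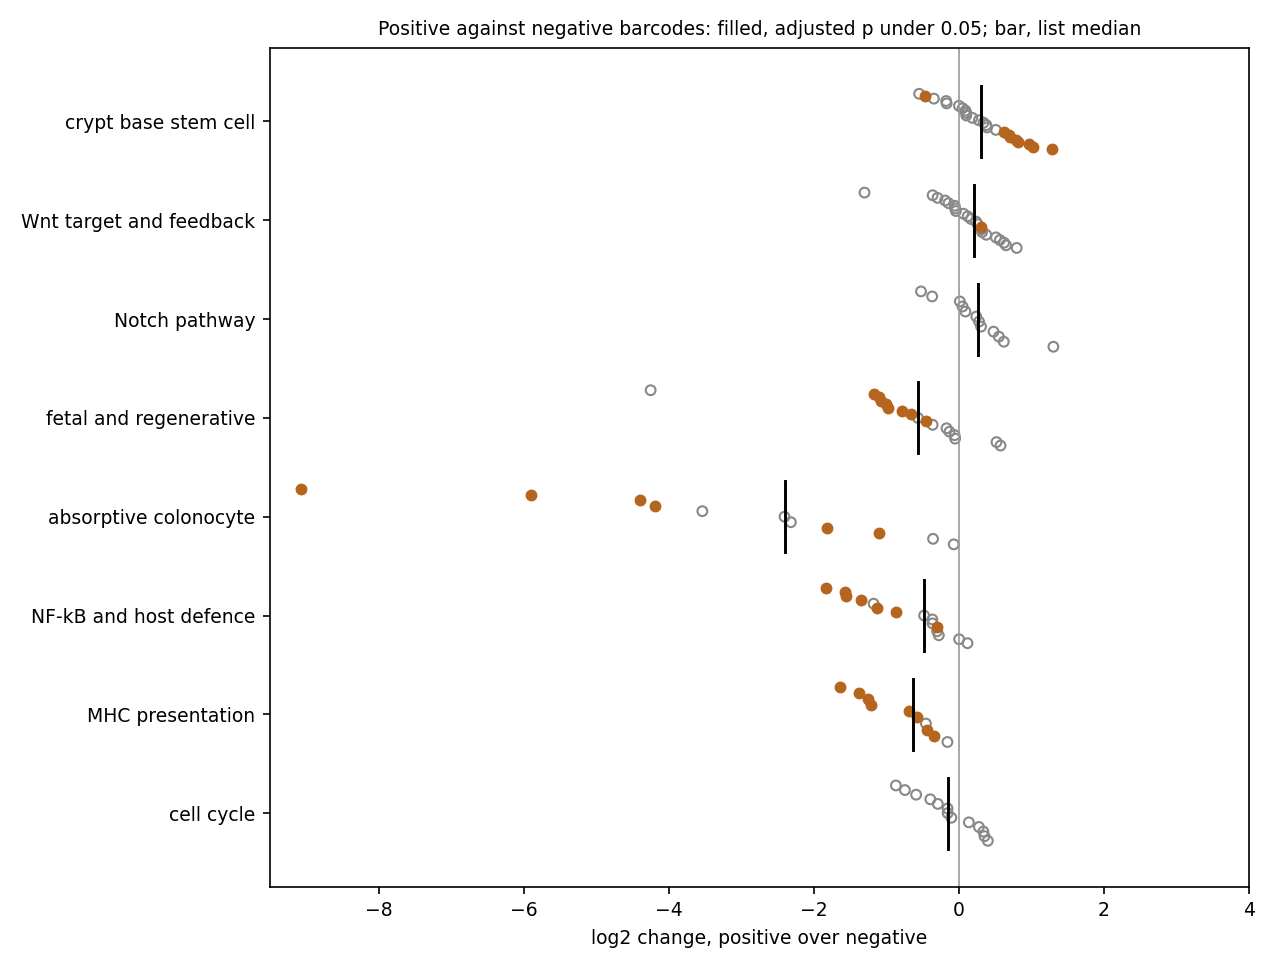
Log2 change of members over negative barcodes of like depth for the genes of 8 lists, 1 point per gene, filled where the adjusted p was under 0.05, with a bar at each list's median. Stem cell genes lie mostly above 0 (8 of 24 higher) and absorptive genes below it (median -2.40).

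The contrast of members with negatives differed between the models for 67 genes (0.619%), 29 (0.268%) with a higher and 38 (0.351%) with a lower contrast in AOM PN, and for 4 and 3 after thinning. Dkk2, a secreted Wnt modulator, was at 79.8, 73 and 63.3 CPM in members and 257, 188 and 217 CPM in negatives of the Apc ICI tumours. Members of the AOM PN tumours had 103, 174 and 125 and negatives 31.4, 123 and 98.2 CPM. Its contrast thus had opposite signs, and the difference was 2.48 ± 0.28 (edgeR adjusted p = 0.002). The Notch target Hes1 differed by 0.89 ± 0.17 (edgeR adjusted p = 0.038) and Anxa1 by 1.26 ± 0.21 (0.016).

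Finally, members of the models were set against each other, AOM PN over Apc ICI, with 1 sum per library. Of 10631 genes tested, 1500 (14.1%) were higher and 1392 (13.1%) lower in AOM PN (edgeR adjusted p under 0.05), and the groups did not overlap for 4820 (45.3%). After thinning to 1500 UMIs 192 were higher and 126 lower. Among the targeted genes, Trp53 was at 149, 161 and 152 CPM in the Apc ICI tumours against 60.7, 76.7 and 77.7 in the AOM PN ones (log2 change -1.12 ± 0.14, edgeR adjusted p = 4.5e-04), Apc at 86.5, 72.9 and 77.9 CPM in the Apc ICI tumours against 69.8, 50.7 and 74 in the AOM PN ones (-0.26 ± 0.16, edgeR adjusted p = 0.25), and Notch1 at 34.2, 41.8 and 36.5 CPM in the Apc ICI tumours against 60.7, 59.8 and 53.4 in the AOM PN ones (0.63 ± 0.15, edgeR adjusted p = 0.011). The Notch1 call was lost after thinning (0.94, edgeR adjusted p = 0.21) and without AOM PN 1 (0.58, 0.050). A 3′ tag can lie outside a deleted part, so these levels do not check the labels.

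Crypt base genes were mostly higher and Wnt brakes mostly lower in AOM PN members. Over all genes, 14.1% were called higher and 13.1% lower. Of 24 stem cell list genes 14 were higher and 4 lower (median 0.56), and of 21 Wnt genes 2 were higher and 12 lower (median -0.66), against a median of -0.04 over all genes. Sox9 was at 180.1, 159 and 187 CPM in the Apc ICI tumours against 436, 403 and 389 in the AOM PN ones (log2 change 1.22 ± 0.12, edgeR adjusted p = 1.4e-04). Lrig1 was at 7.10, 7.70 and 9.21 CPM in the Apc ICI tumours against 37, 65 and 38.4 in the AOM PN ones (2.5 ± 0.26, edgeR adjusted p = 1.6e-04), and Ephb3, the receptor that sorts crypt base cells, was higher by 1.97 ± 0.18. Smoc2 and the RNA-binding protein Mex3a were lower (-1.12 ± 0.29 and -1.77 ± 0.21), and Smoc2 was lost without AOM PN 3 (-1.05) or Apc ICI 1 (-0.89). Nkd1 was at 884, 819 and 806 CPM in the Apc ICI tumours against 295, 112 and 237 in the AOM PN ones (-1.94 ± 0.27, edgeR adjusted p = 8.5e-04), and Prox1 and Wif1 were lower as well (-2.07 ± 0.53 and -2.65 ± 0.59), with Prox1 lost without Apc ICI 1 (-1.93). Axin2 was at 311, 258 and 279 CPM in the Apc ICI tumours against 165, 218 and 187 in the AOM PN ones (-0.58 ± 0.14, edgeR adjusted p = 0.014), and this call was lost after thinning, where the change was 0.21, and without AOM PN 1 (-0.48) or AOM PN 3 (-0.56). Myc and Ccnd1 were the Wnt targets that were higher, by 1.09 ± 0.23 and 1.69 ± 0.34, and Myc did not pass after thinning.

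Most regenerative genes, and single genes of Notch signalling and intestinal identity, were higher in AOM PN members. The list counts stand beside 14.1% of all genes called higher and 13.1% called lower. Nrarp (chr2:25180758-25183339), a feedback inhibitor switched on by Notch, was at 5.07, 6.16 and 5.92 CPM in the Apc ICI tumours against 46.6, 70.2 and 59.9 in the AOM PN ones (log2 change 3.31 ± 0.22, edgeR adjusted p = 2.3e-05). The ligand Jag1 was higher by 1.85 ± 0.36, the Notch-modifying enzyme Lfng was at -2.66 ± 0.47, and Hes1 did not pass (0.37 ± 0.24, edgeR adjusted p = 0.28), which left 3 higher and 1 lower of 11 Notch genes. Of 16 fetal and regenerative genes 10 were higher and 2 lower (median 1.27). Areg, which encodes the EGF receptor ligand amphiregulin, was at 61.9, 77.7 and 36.8 CPM in the Apc ICI tumours against 728, 774 and 708 in the AOM PN ones (3.63 ± 0.24, edgeR adjusted p = 2.3e-05). The Cdx factors of intestinal identity rose together: Cdx1, at 15, 10.4 and 23 CPM in the Apc ICI tumours against 92.7, 125 and 97.4 in the AOM PN ones (2.73 ± 0.26, edgeR adjusted p = 1.1e-04) and Cdx2, at 0.507, 0.514 and 1.97 CPM in the Apc ICI tumours against 25.1, 45.5 and 17.8 in the AOM PN ones (4.95 ± 0.52, edgeR adjusted p = 1.7e-04). Ceacam20, a brush border adhesion protein, was listed at 0 in Apc ICI members and stood at 10.5, 16.9 and 17.8 CPM in the AOM PN ones, at least 51.6-fold higher over the limit of 3 UMIs for the group. Of 5 absorptive colonocyte genes 3 were higher and none lower, whereas of 8 goblet and deep crypt secretory genes 3 were lower and none higher.

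Among the named genes of widest change, the water channel Aqp4 (5.29 ± 0.52), the mucins Muc3 and Muc4 (5.2 ± 0.53 and 4.83 ± 0.47) and the inflammasome sensor Nlrp6 (5.06 ± 0.36) were higher in AOM PN. Trac, the constant part of the T cell receptor alpha chain, was at 2.03, 3.25 and 1.32 CPM in the Apc ICI tumours against 147, 259 and 126 in the AOM PN ones (6.17 ± 0.36, edgeR adjusted p = 1.2e-05), 2.70 times its level in Ptprc-positive barcodes, while Cd3e was at 0 in AOM PN 2 and 3 and Ncr1 in all libraries. Robo1 (chr16:72308306-73046095), a receptor of the Slit guidance cues, was at 119, 100.5 and 122 CPM in the Apc ICI tumours against 5.02, 2.60 and 3.75 in the AOM PN ones (-4.75 ± 0.23, edgeR adjusted p = 4.3e-06). Bex4 stood at 47.7, 52.7 and 26 CPM in the Apc ICI tumours and had no UMI in AOM PN members, so it was at least 56.6-fold higher in Apc ICI, each bound being the smaller of those with and without TMM scaling. Cadps, a priming factor of secretory granules, was at -5.68 ± 0.39. Pyy, a peptide hormone of enteroendocrine cells, was seen in 1931 UMIs of Apc ICI and 3 of AOM PN members. Mt3 did not pass between the models (2469, 1654 and 1792 CPM in the Apc ICI tumours against 961, 1.30 and 252 in the AOM PN ones, -2.25 ± 0.97, edgeR adjusted p = 0.11); AOM PN 1 was nearest to Apc ICI and AOM PN 2 was close to 0.

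Stress and inflammatory genes completed the difference. The counts below stand beside 14.1% of all genes called higher and 13.1% called lower in AOM PN. Of 15 NF-kappa-B targets 13 were higher and 1, Lcn2, was lower in AOM PN (median 2.20; Lcn2 at -1.77, lost without Apc ICI 1 at -1.37, AOM PN 1 at -2.0 or AOM PN 3 at -2.09), with the nitric oxide synthase Nos2 at 4.32 ± 0.55, Ccl20 at 3.2 ± 0.56 and the oxidase Duox2 at 2.44 ± 0.28. Of 18 p53 targets 8 were higher and 1 lower (median 0.44), with the kinase Plk2 higher by 1.94 ± 0.29. Of 14 cell cycle genes 9 were higher and none lower (median 0.92), in members that the rule had limited to fewer than 2 UMIs of Mki67 and Top2a. That limit counted UMIs at full depth, so it was stricter in deeper libraries, and members were deeper in Apc ICI. Its part in this difference was not tested. Of 14 metallothionein and hypoxia genes 5 were lower and none higher (median -0.62), and 9 of 16 dissociation-responsive immediate early or heat shock genes were higher with none lower (median 0.63). Of 10 MHC genes 4 were higher, and 7 were mainly of Ptprc-positive barcodes. Neutrophil, mast cell and B cell markers were higher in AOM PN members as given above, and the part of RNA from other cells in these lists was not tested.

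**Figure D5:**
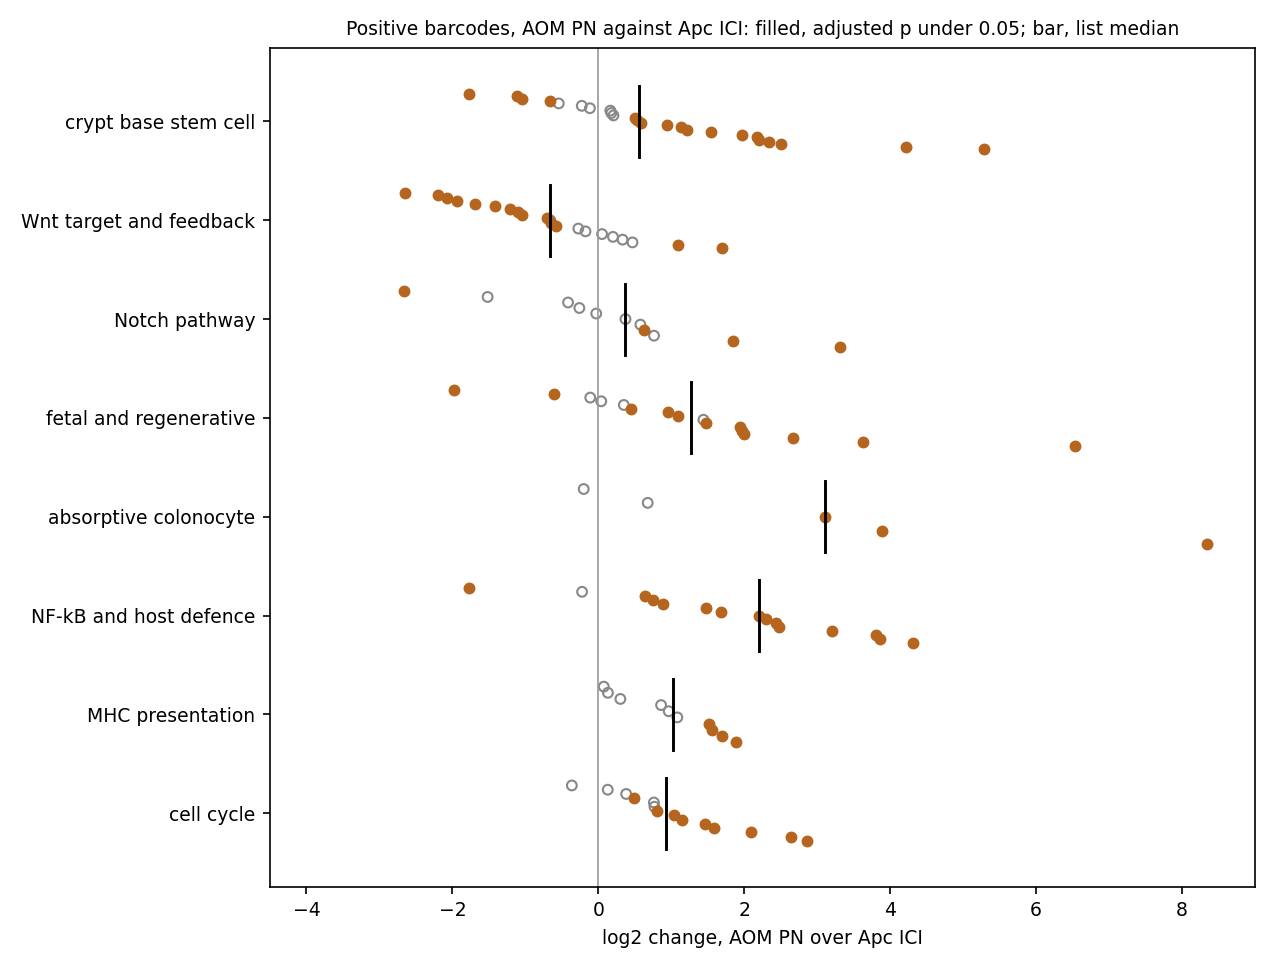
Log2 change of AOM PN over Apc ICI members for the genes of the same kind of lists, 1 point per gene, filled where the adjusted p was under 0.05, with a bar at each list's median. Wnt genes lie mostly below 0 (median -0.66), and regenerative, absorptive and NF-kappa-B genes above it.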

How the data were processed

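Raw UMI counts of each library were deposited as gene by barcode matrices, produced by Cell Ranger 6.1.2 against mm10, per the submitters' processing notes; the gene annotation is not given in the sources used here. Tumours were dissociated, dead cells removed by DAPI sorting and 3′ libraries sequenced, per the labels' protocols. Libraries held 59309093 to 98583066 UMIs over 31053 features, of which haemoglobin took 1.87% to 61.4%.

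Members were found by the rule stated in the report. The members, the gene lists, the tests and the named genes were chosen with earlier results of these data known. Named genes were the 12 widest changes each way that passed the test, reached 30 CPM and were not mainly of Ptprc-positive barcodes, plus list members that passed. The 12 widest also needed groups without overlap between the models. For comparisons within libraries they needed the same direction in at least 5 of 6 libraries. Agreement of these genes between libraries is therefore no separate support. Counts were summed per library and class, with at least 10 barcodes per sum, and compared by the quasi-likelihood F test of edgeR 4.0.16 under R 4.3.3, after TMM scaling and filterByExpr. Adjusted p-values follow Benjamini-Hochberg, with calls at 0.05. Values after ± of a log2 change are approximate standard errors, the size of the change divided by the square root of F. They are not fitted errors, and for genes with few UMIs in 1 class they depend on the prior count. Negatives were matched within 0.25 log2 units of depth, up to 3 per member. Shares were compared after thinning in Python 3.11.15 (numpy 2.4.6, scipy 1.17.1). Doublets were scored at an expected 0.8% per 1000 barcodes and kept. Replicate numbers did not pair the libraries: correlations of same-numbered deviations were 0.10, 0.0069 and -0.072. DESeq2 1.42.0 served as an alternative. Gene positions are of GRCm38 (GENCODE), and windows before gene starts are RefSeq's.

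On simulated counts with 200 changed genes, edgeR recovered 62% of 2-fold and 99% of 4-fold changes between models (10489 genes, 4.73% of calls false). It recovered 89% and 100% for members against negatives (10514 genes, 4.06% false), and 87% and 100% for Lgr5-only against Ascl2-only barcodes (8576 genes, 2.60% false). All genes of a comparison were drawn with its common dispersion, and no gene was carried by a single barcode or library. The rates may not hold for genes that vary more than that. Intervals are exact (Clopper-Pearson, 95%).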

Additional observations from a re-analysis of the deposited data

Results flagged for a closer look

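Between the models, the contrast of members over negative barcodes differed for 8 named genes by the edgeR interaction test with Benjamini-Hochberg adjustment (AOM PN minus Apc ICI, log2). Igha, Igkc and Jchain, of antibodies, differed by 8.41 (adjusted p = 0.0012), 8.35 (0.0076) and 7.56 (0.0020). Without barcodes of over 30 Igkc UMIs the 3 values were -0.46, 0.78 and -1.44 and none passed; without Apc ICI 1 they were 3.81, 3.75 and 0.49, the last 2 no longer called, and without AOM PN 1 none was called (7.66, 7.28 and 7.01). Abcc2, an organic anion transporter, differed by 3.78 (edgeR adjusted p = 0.028), and was lost without AOM PN 1 (2.32), Apc ICI 2 (3.68) or Apc ICI 3 (3.8). Cxcl9, a chemokine, was at -9.25 (edgeR adjusted p = 0.040), a fitted value that depends on the prior count, with no UMI in AOM PN members and 5.51, 40.2 and 25.3 CPM in their negatives, and was lost without any 1 library but Apc ICI 3 (-10.26 to -8.33).

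The hormones Pyy and Nts were at -8.85 and -7.34 (edgeR adjusted p = 0.024 and 0.0043). Both rested on 1 library: Pyy was at 2216 CPM in negatives of AOM PN 1 and at 0 in those of AOM PN 2 and 3, and without AOM PN 1 its value was 4.88, while Nts was at 427 CPM in negatives of AOM PN 2 and was at -1.93 without that library. Reg3b, an antimicrobial lectin, was at -6.87 (edgeR adjusted p = 0.0032), with 643, 0 and 18.2 CPM in AOM PN members and 4488, 515 and 900.4 in their negatives, and was lost without Apc ICI 3 (-7.22).

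The contrast of Lgr5-only over Ascl2-only members differed for Mt3 by 9.67 (edgeR adjusted p = 0.00018), Tesc by 9.13 (0.00075), Prdm1 by 8.68 (0.012) and Asprv1 by 7.93 (0.0077). Tesc, Prdm1 and Asprv1 had no UMI in Ascl2-only sums of AOM PN, and Mt3 had next to none. The fitted values of these genes therefore depend on the prior count and are no bound. Mt3 and Tesc were also at 0 in the Lgr5-only sum of AOM PN 2. Krt14, a basal keratin, was at -5.93 (edgeR adjusted p = 0.0018), with 205, 168 and 33.2 CPM in Ascl2-only members of AOM PN against 11.3, 5.07 and 5.81 in Lgr5-only members. Tac1 was at -4.47 (edgeR adjusted p = 0.037), Fxyd4 at -4.0 (0.012) and Dmbt1 at -3.58 (0.0017). Prdm1, Asprv1 and Fxyd4 were lost without AOM PN 1 (8.95, 6.75 and -4.19), Fxyd4 also without AOM PN 3 (-3.67) or Apc ICI 2 (-3.70), Dmbt1 without Apc ICI 3 (-2.96), and Tac1 without any 1 library (-7.53 to -4.16).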

How the results depend on the processing

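The share difference lay between -1.72 and -0.341 points when 1 library was left out. Between models, 192 genes were higher and 126 lower after thinning, and 37 and 24 with members called after thinning; Axin2 was then at 0.21 and 0.17, Lef1 at 0.28 after thinning, and Cldn4 at 0.54, Hmgb2 at -0.50 and Krt7 at 0.067 with members so called. With replicate number as a replicate block, 1310 and 1249 passed; the numbers do not pair the libraries. Leaving out 1 library gave 1179 to 1317 and 973 to 1215.

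For members over negatives, 78 were higher by DESeq2's Wald test, 401 higher and 775 lower against all negatives, 228 and 676 with no count filter, 35 and 88 without the library block, and 32 and 105 after thinning. Leaving out 1 library gave 82 to 136 and 229 to 348 (96, 82 and 92 higher without Apc ICI 1, 2 and 3, 229 lower without Apc ICI 3), with Jchain from -3.86 to 0.24, the latter without Apc ICI 1. For its difference between models, 19 were higher by DESeq2's Wald test and with at least 2 UMIs of the pair, 81 lower against all negatives, 24 lower without doublets, 196 and 158 with no filter, and 4 and 3 after thinning. Without the library block edgeR called 0 and 0 (707 at an unadjusted p under 0.05). Leaving out 1 library gave 8 to 31 (8 without AOM PN 1, 10 without Apc ICI 3) and 15 to 38 (22, 25, 18 and 15 without AOM PN 1, AOM PN 3, Apc ICI 2 and Apc ICI 3). Igha was at -0.46 and Jchain at -1.44 without immunoglobulin-rich barcodes, and Pyy at 0.38 by DESeq2 and from -9.97 to 4.88 with 1 library left out, the latter without AOM PN 1.

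Lgr5-only against Ascl2-only barcodes gave 610 and 580 with pairing in depth and 414 and 316 after thinning, with Pigr at 0.42 after thinning and Alas2 at -0.48 with pairing. Leaving out 1 library gave 640 to 1088 and 654 to 1084 (640 higher without AOM PN 1, 715 and 659 without Apc ICI 2, 654 lower without Apc ICI 3). Its difference between models gave 30 and 4 with pairing and 4 and 2 after thinning. Leaving out 1 library gave 30 to 109 (30, 40 and 55 without AOM PN 1, Apc ICI 2 and Apc ICI 3) and 8 to 29 (12 without AOM PN 1, 15, 8 and 9 without Apc ICI 1, 2 and 3). The cause of these moves was not tested beyond fewer UMIs under thinning and fewer libraries. Both Lgr5-only comparisons, the immunoglobulin-rich setting, pairing in depth and, for the difference between models, all negatives, no block and at least 2 UMIs were added after seeing the data.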
